A study of Mus musculus with 617 samples.

Results

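The set described here holds 6 of the 43628 gene entries in each deposited table: Otx2, Pou3f1, Sox3, Zic2, Zic5 and Foxd3. All encode transcription factors that are named in the literature for the primed epiblast, and their rows were taken by Ensembl gene identifier from all 4 tables. The data were single-cell RNA-seq profiles of mouse cells in 13 groups, given as FPKM, fragments per kilobase of transcript normalised to the mapped fragments. Embryonic stem (ES) cells came from 1 female and 1 male line, both from crosses of CAST/EiJ and C57BL/6J mice, so that sex and line are a single factor. They were grown in 2i and LIF (60 female and 51 male cells) or in serum and LIF (68 and 52 cells). From the same lines came epiblast stem cells, called Epi cells below, kept in Activin A and FGF2 (79 and 63 cells). A further female Epi culture of 7 passages (41 cells) stood in a table of its own. Motor neuron cultures (39 and 35 cells) were made through embryoid bodies with retinoic acid and the smoothened agonist SAG, and can also hold interneurons. Embryo cells were 23 cells of the E3.5 inner cell mass and 23 of the E4.5 epiblast, of CAST/EiJ and C57BL/6J parents, and 20 female and 63 male E5.5 epiblast cells of C57BL/6J parents. Cells were picked one by one, and each culture state had 2 cultures, 1 per line.

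Pluripotent cells of the early mouse embryo pass from a naive state, before implantation, to a primed state in the postimplantation epiblast. Cultures in 2i, a pair of kinase inhibitors, with LIF hold ES cells near the naive state, and cultures in Activin A and FGF2 hold cells near the primed state, while serum with LIF gives a mixture. Otx2 is a homeodomain factor that helps direct this change and later patterns the anterior head, and the visceral endoderm also uses it. Pou3f1, also called Oct6, is a POU factor of the primed epiblast and of neural cells. Sox3 is an X-linked SoxB1 factor close to Sox2. Zic2 and Zic5 are zinc finger factors of the neural plate, and Foxd3 is a forkhead factor needed by the epiblast and, later, by the neural crest.

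The 6 genes lie on 3 chromosomes (GRCm38/mm10, GENCODE vM21, whole gene bodies). Otx2 (ENSMUSG00000021848) is at chr14:48657677-48673819 on the minus strand. It overlaps the long non-coding gene Otx2os1 on the plus strand and the gene entry Gm49154 on the minus strand. Pou3f1 (ENSMUSG00000090125), at chr4:124656807-124660655 on the plus strand, overlaps an antisense gene, Gm2164. Sox3 (ENSMUSG00000045179) is at chrX:60891366-60893430 on the minus strand. Zic2 (ENSMUSG00000061524) at chr14:122475435-122479852 on the plus strand and Zic5 (ENSMUSG00000041703) at chr14:122456795-122465677 on the minus strand are neighbours that point away from each other, with starts 9758 bases apart. Foxd3 (ENSMUSG00000067261) is at chr4:99656299-99658622 on the plus strand and overlaps the microRNA gene Gm23366. Whether reads were counted by strand is not given in the sources used here. Reads of Otx2 and Pou3f1 thus cannot be told apart from reads of their partners on the other strand. Gm49154 and Gm23366 lie on the same strand as Otx2 and Foxd3, where counting by strand would not separate them.

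The regions before the start sites of 3 members are shown, so that their letters can be set beside the levels over embryo stages described below. These are the members that could be matched to a RefSeq start site (GRCm38.p6), 3 of 6. They are Otx2 (4 start sites, the outermost of these 4 shown), Zic5 and Foxd3. The region shown for Otx2 lies inside the gene body given above, whose annotated start is further upstream. The Otx2 region is chr14:48667645-48667894 on the minus strand, that of Zic5 is chr14:122465678-122465908 on the minus strand, without the 19 bases that lie in an annotated exon, and that of Foxd3 is chr4:99656049-99656298 on the plus strand. Capitals mark the one searched motif found in them, the TATA letters.
Otx2: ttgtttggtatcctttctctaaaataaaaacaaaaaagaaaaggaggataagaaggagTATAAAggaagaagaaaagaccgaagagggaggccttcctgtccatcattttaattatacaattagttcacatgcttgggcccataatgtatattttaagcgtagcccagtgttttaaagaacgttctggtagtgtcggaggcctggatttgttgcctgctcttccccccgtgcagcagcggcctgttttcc
Zic5: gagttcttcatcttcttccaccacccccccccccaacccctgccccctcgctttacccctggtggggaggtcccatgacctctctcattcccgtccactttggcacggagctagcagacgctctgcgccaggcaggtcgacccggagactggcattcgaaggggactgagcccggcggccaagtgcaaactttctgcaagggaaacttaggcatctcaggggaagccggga
Foxd3: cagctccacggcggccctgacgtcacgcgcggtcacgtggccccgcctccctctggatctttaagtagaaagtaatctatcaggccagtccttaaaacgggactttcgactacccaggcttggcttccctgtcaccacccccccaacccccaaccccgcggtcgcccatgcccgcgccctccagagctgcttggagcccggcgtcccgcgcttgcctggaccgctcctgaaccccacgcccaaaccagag
The searched letters, on both strands, were TAATCC for OTX factors, ATGCAAAT for POU factors, AACAAT for SOX factors, CCTGCTG for ZIC factors, GTAAACA for FOX factors, GGGCGG for the GC box and TATAAA for the TATA box. Over all 32851 RefSeq start regions of 250 bases these were present in 6.25%, 1.601%, 9.42%, 8.44%, 3.17%, 32.7% and 12.4%. In the 250 bases of Otx2 above, TATAAA stood 192 to 187 bases before the start, and the OTX letters stood in the region of another Otx2 start site, 211 to 206 bases before it, which is not shown because it lies in exons. None of the 7 motifs was in the Zic5 or Foxd3 region. The Foxd3 region had 21 CpG and 65.6% G and C, the Zic5 region 11 CpG and 62.4%, and the Otx2 region 6 CpG and 42%, against a median of 6 CpG and 52.4% over all start regions.

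Some groups did not look like their labels in the genes that define them, and this touches the results that follow. Zfp42 (Rex1), a marker of naive pluripotency, had a mean of 72.5 FPKM in the female Epi culture, 0.0687 in the male one and 0.117 in the 7-passage culture, beside 115.5 and 126 in the female and male 2i cultures. Gata6, a gene of the primitive endoderm, was at 1 FPKM or more in 19 of 23 E4.5 epiblast cells, and its mean there was 16.9 FPKM beside 0.838 in female and 0.653 in male E5.5 cells. Trophoblast markers were present there as well: Cdx2 and Gata3, trophoblast factors, were each at 1 FPKM or more in 87.0% of E4.5 cells, with means of 48.6 and 84.4 FPKM, and Elf5 in 73.9%. The summed level of 10 trophoblast markers ran from 7.82 to 739 FPKM (median 179) at E4.5, where 7 of 10 had a mean of at least 1 FPKM and none was at 0. At E3.5 it ran from 7.03 to 431 (median 76.1), with 7 of 10 and Esx1 at 0. It ran from 18.2 to 417 (median 79.8) in female E5.5 cells, with 10 of 10, and from 6.16 to 485 (median 38.98) in male ones, with 9 of 10. The summed level of 12 endoderm markers ran from 105.96 to 3680 FPKM (median 997) in female E5.5 cells, where 11 of the 12 had a mean of at least 1 FPKM, and from 17.9 to 1221 (median 278.3) in male ones, with 9 of 12. In the male Epi culture it ran from 0 to 839 (median 58) with 6 of 12, and Sox7 and Ttr were at 0. In the female Epi culture it ran from 0 to 164 (median 5.37) with 5 of 12, and in the 7-passage culture from 0.777 to 1245 (median 32.1) with 7 of 12, and Ttr was at 0 in both. The part of these markers in the members' levels was not tested. Group medians of the genes at that level per cell lay between 8122 (E3.5) and 10839.5 (female E5.5). No 2 cells agreed so closely as to look like a single library, the highest correlation being 0.938.

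In the embryo groups, 5 of the 6 members had their highest mean at E5.5, and Foxd3 did not. Otx2 was already present in the blastocyst cells, while Pou3f1, Sox3, Zic2 and Zic5 were at 1 FPKM or more in none of the 23 E3.5 cells. A count of 0 in 23 cells allows a share of up to about 13.0%, for counting error only. This limit is 3 divided by the number of cells, an approximation that lies below the exact interval used for other shares. E5.5 cells came from another cross and another table than the blastocyst cells, and so stage, cross and table cannot be told apart; levels across them are given without a test. All E4.5 levels below rest on the cells in which Gata6, Cdx2 and Gata3 were widespread. At E3.5 too these 3 genes were at 1 FPKM or more in 95.7%, 56.5% and 82.6% of cells.

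Otx2 had a mean of 5.17 ± 8.18 FPKM (SD over 23 cells) at E3.5 and 4.14 ± 7.23 (23 cells) at E4.5, with lowest, median and highest values of 0, 1.96 and 32.2, and 0, 0.228 and 31.6. It was at 1 FPKM or more in 56.5% of E3.5 cells (exact binomial 95% interval 34.5 to 76.8%) and 43.5% of E4.5 cells. At E5.5 it reached 92.2 ± 52.7 in 20 female cells (10.5, 103.6 and 202) and 144.04 ± 57.1 in 63 male cells (17.4, 140 and 322), and every E5.5 cell held it. The ranges at E4.5 and E5.5 overlapped, since the highest E4.5 cell stood above the lowest E5.5 cell.

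Pou3f1 was close to absent before implantation and near 10 FPKM afterwards. At E3.5 its highest value in any of 23 cells was 0.362 FPKM, and at E4.5 1 of 23 cells passed 1 FPKM, at 1.20. At E5.5 the mean was 11.8 ± 5.32 FPKM (SD, 20 female cells; lowest 5.82, highest 23.4) and 10.2 ± 5.10 (63 male cells; 0.142 to 32.5). Its share of cells was 100% and 96.8%, so that no female E5.5 cell overlapped any blastocyst cell, while 2 of the 63 male cells lay under 1 FPKM.

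Sox3 was listed at 0 in all 23 E3.5 cells and was under 1 FPKM in all 23 E4.5 cells. At E5.5 its mean was 2.19 ± 3.04 FPKM (SD, 20 female cells) and 2.58 ± 2.45 (63 male cells), and 45% and 65.1% of cells had it at 1 FPKM or more. The remaining E5.5 cells overlapped the blastocyst cells, with 8 female and 11 male cells at 0.

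The 2 Zic genes differed in level but shared their order over stages. Zic5 had a mean of 0.00328 FPKM at E3.5, 0.843 ± 1.71 at E4.5 (SD, 23 cells), 10.2 ± 5.05 in female and 10.2 ± 5.66 in male E5.5 cells. Zic2 means were 0.00337, 0.307, 2.13 and 3.25 FPKM in the same groups. At 1 FPKM, Zic5 was in 26.1% of E4.5 cells (10.2 to 48.4%) and in 100% and 98.4% of E5.5 cells, and Zic2 was in 13.0%, 70% and 87.3%.

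The 3 E4.5 cells with Zic2 at 1 FPKM or more were chosen after their values were seen. They held Otx2 at 8.51, 5.77 and 31.6 FPKM, Zic5 at 1.07, 6.20 and 5.84 and Foxd3 at 2.91, 5.62 and 4.32. Their Gata6 was 0, 0.0228 and 0.133 FPKM and their Sox2, a factor of the pluripotent epiblast, 24.1, 28.1 and 39.03, while Zfp42 was 272, 150 and 117.7. In those cells 4 of the 6 members were thus above 1 FPKM beside high Zfp42 and little Gata6.

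Foxd3 followed another course. Its mean was 2.30 ± 5.88 FPKM (SD, 23 cells) at E3.5 and 2.48 ± 3.36 (23 cells) at E4.5, then 1.07 ± 1.36 in female and 1.98 ± 2.18 in male E5.5 cells. Its share of cells at 1 FPKM was 26.1% at E3.5, 60.9% at E4.5 (38.5 to 80.3%), 35% in female and 63.5% in male E5.5 cells. On the log2(mean FPKM + 1) scale the male E5.5 mean lay 4.82 above the E4.5 mean for Otx2, 3.41 for Pou3f1, 2.61 for Zic5, 1.78 for Sox3 and 1.702 for Zic2, and for Foxd3 it fell by 0.23. With female E5.5 cells the differences were 4.18, 3.60, 2.60, 1.62 and 1.26, and Foxd3 fell by 0.75.

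**Figure D1:**
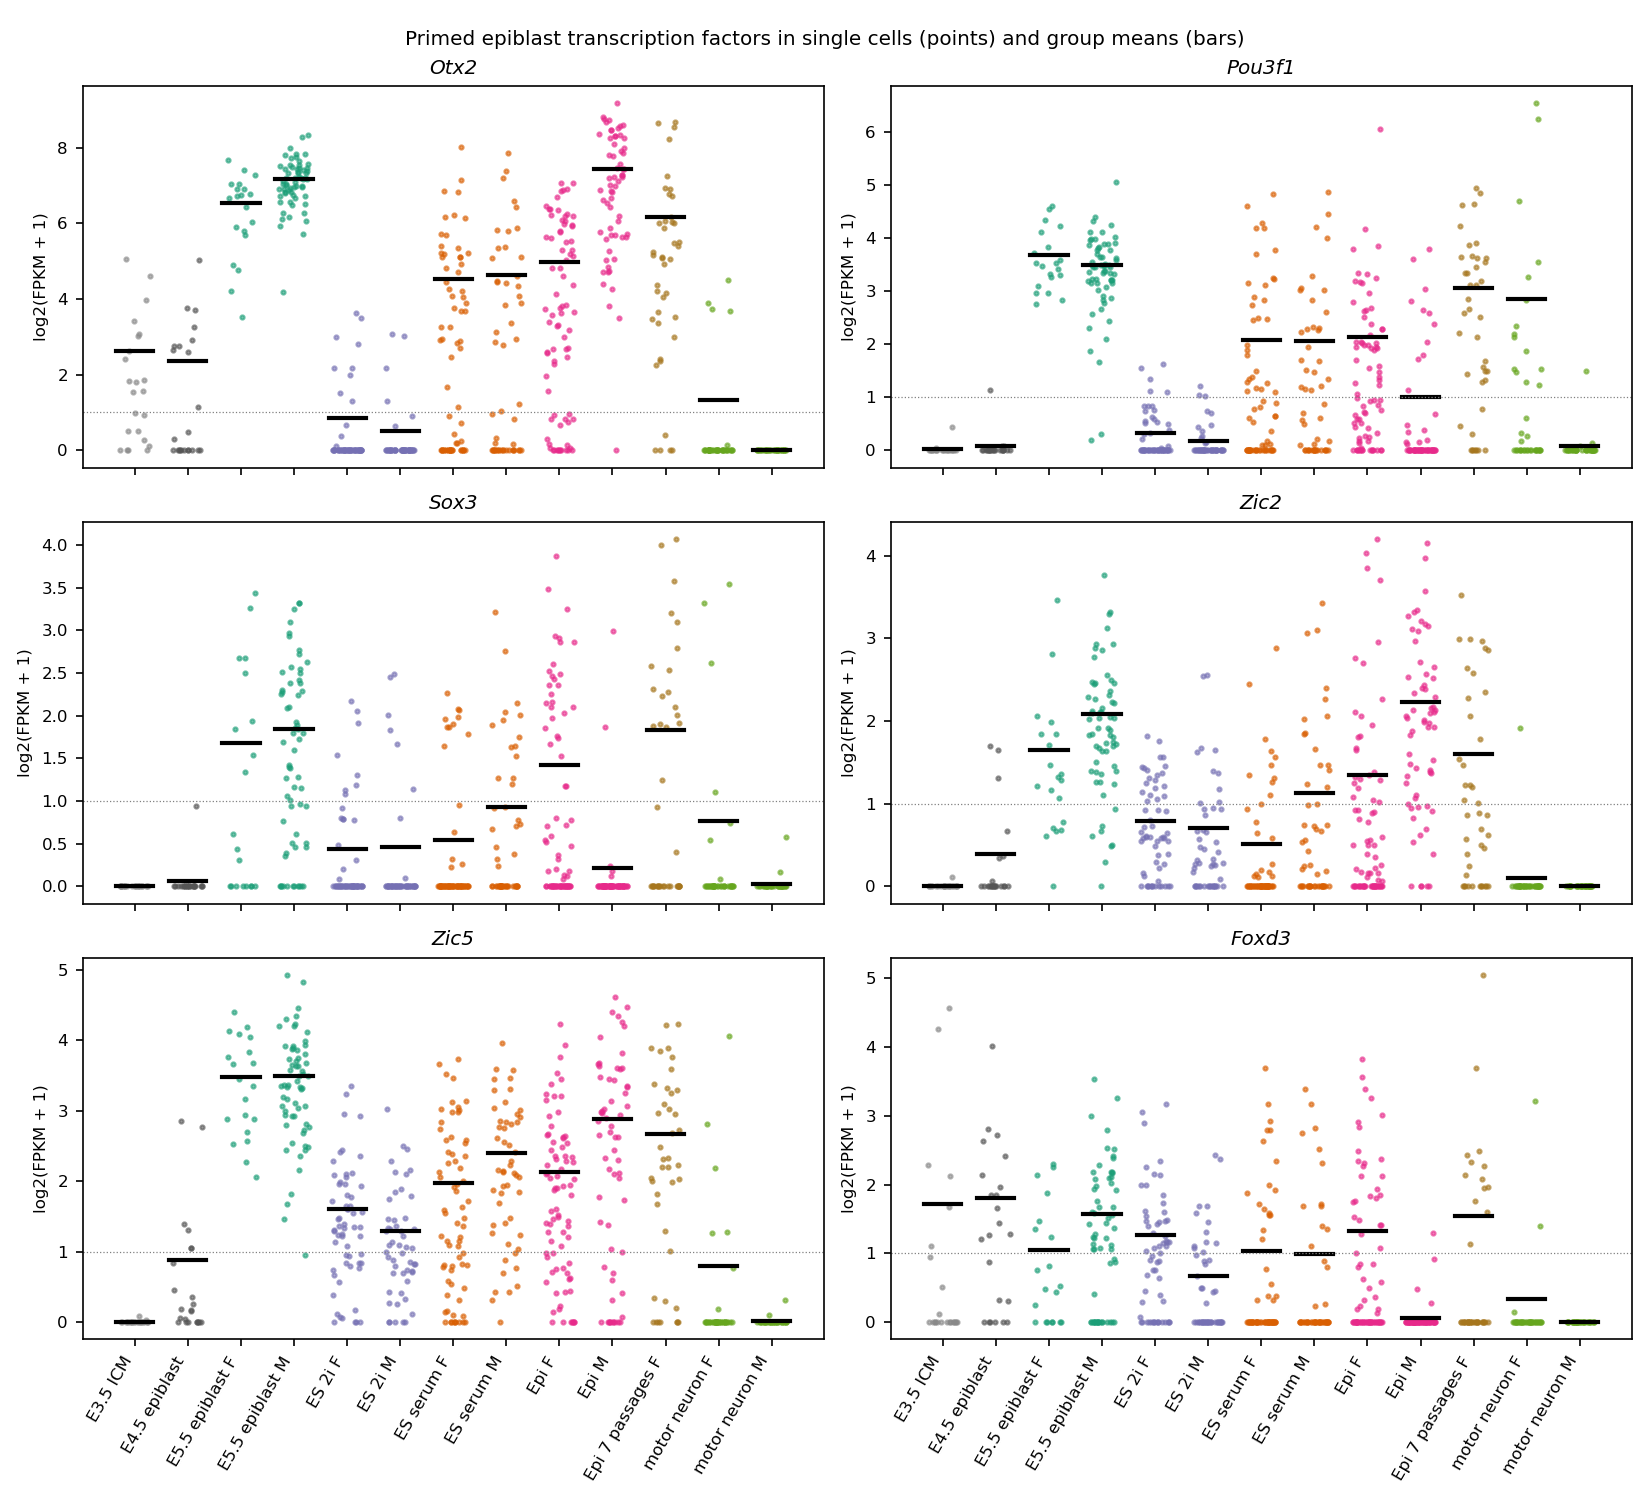
FPKM of each of the 6 members in single cells by group, as log2(FPKM + 1) on the vertical axis; each point is 1 cell, each bar the log2 of the group's mean FPKM + 1, and the dotted line 1 FPKM. Otx2, Pou3f1 and Zic5 sit high in nearly all E5.5 cells and scatter from 0 upward in serum and Epi cultures.

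In the 2i cultures the members were low and Zic5 was the one most often seen. Otx2 had a mean of 0.814 ± 2.32 FPKM (SD, 60 cells) in the female and 0.413 ± 1.51 (51 cells) in the male 2i culture, with 15.0% (7.10 to 26.6%) and 7.84% (2.18 to 18.9%) of cells at 1 FPKM or more. Pou3f1 passed 1 FPKM in 8.33% and 5.88% of cells, Sox3 in 13.3% and 11.8%, and Zic2 in 33.3% and 19.6%. Zic5 stood at 2.05 and 1.44 FPKM, with 66.7% and 50.98% of cells. Foxd3 was seen in 51.7% of female and 23.5% of male 2i cells, and its means were 1.41 and 0.586 FPKM.

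Serum cultures held Otx2 and Pou3f1 in part of their cells. Otx2 had a mean of 22.2 ± 41.4 FPKM (SD, 68 cells) in the female culture, with a lowest value of 0, a median of 6.27 and a highest of 258.3, and 23.7 ± 46.3 (52 cells) in the male culture, with 0, 1.18 and 233. It passed 1 FPKM in 57.4% (44.8 to 69.3%) and 51.9% (37.6 to 65.99%) of cells. The spread was wider than the mean in both cultures, and the low cells overlapped the 2i cells. Pou3f1 means were 3.24 ± 5.89 and 3.15 ± 5.72 FPKM, and 42.6% and 48.1% of cells passed 1 FPKM.

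Sox3, Zic2 and Foxd3 stayed scarce in serum. Sox3 had means of 0.452 FPKM in the female and 0.910 in the male serum culture, Zic2 of 0.429 and 1.18, and Foxd3 of 1.05 and 0.982. Zic5 had 2.91 and 4.28 FPKM, in 61.8% and 82.7% of cells. Cell numbers in the titles fell into runs that the labels do not explain. In the male serum culture the lower run (13 cells) and the higher run (39 cells) differed in Pou3f1, 0.421 against 4.06 FPKM, in Zic2, 0.203 against 1.51, and in Otx2, 36.8 against 19.4, with Zfp42 at 166 against 63.4; the part of these runs in the culture means was not tested.

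The members split in the Epi cultures. The male Epi culture had the highest Otx2 mean of all 13 groups, 173 ± 140.98 FPKM (SD, 63 cells; lowest 0, median 138.9, highest 578), and 62 of its 63 cells passed 1 FPKM. In the female Epi culture the mean was 30.8 ± 37.1 (79 cells; 0, 11.6 and 134.1), and in the 7-passage culture 71.6 ± 107 (41 cells; 0, 33.3 and 410). Zic2 also had its highest mean in the male Epi culture, at 3.69 ± 3.47 FPKM beside 1.54 ± 3.35 in the female one, and Zic5 stood at 6.37 ± 6.08 and 3.38 ± 3.501.

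Pou3f1, Sox3 and Foxd3 had lower means in the male than in the female Epi culture, a difference between 1 culture of each line with no replicate. Pou3f1 had means of 0.999 ± 2.57 FPKM (SD, 63 male cells) and 3.39 ± 7.92 (79 female cells), with 17.5% (9.05 to 29.1%) and 50.6% of cells at 1 FPKM or more, and 7.37 ± 8.00 and 75.6% (59.7 to 87.6%) in the 7-passage culture. Sox3 was in 3.17% of male, 35.4% of female and 43.9% of 7-passage Epi cells. Foxd3 was in 1.59%, 34.2% and 31.7%. Sox2 itself had a mean of 0.962 FPKM in the male, 28.5 in the female and 2.63 in the 7-passage Epi culture, and Sox17, an endoderm gene, 63.5, 0.442 and 46.1. Sox17 came from few cells, at 1 FPKM or more in 17.5%, 10.1% and 14.6%, with a median of 0 in each culture. Other endoderm markers had lower means in the male than in the female Epi culture, Amn at 0.472 against 1.90 FPKM and Lrp2 at 0.178 against 1.66. The part of such cells in the members' levels was not tested.

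Motor neuron cultures held little of any member apart from Pou3f1 in the female culture. Otx2 was listed at 0 in all 35 male cells, as were Zic2 and Foxd3. By the approximation used above, a count of 0 in 35 cells allows a share of up to about 8.57%. In the female culture Otx2 passed 1 FPKM in 4 of 39 cells, at 13.9, 12.3, 21.6 and 11.8 FPKM, and the same 4 cells had the pluripotency factor Pou5f1 at 349, 362, 624 and 128.3. Pou3f1 had a mean of 6.21 ± 18.99 FPKM (SD, 39 cells) there, and 5 cells held 87.9% of its sum. In the 2 runs of title numbers of that culture its mean was 9.88 (22 cells) and 1.46 FPKM (17 cells), and the part of the runs in the culture mean was not tested.

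The highest 2 Pou3f1 values, 92.6 and 75.6 FPKM, were in cells with Isl1, a motor neuron factor, at 630 and 548 FPKM and the neuronal tubulin Tubb3 at 2842 and 1999. In the male culture 1 of 35 cells had any member at 1 FPKM, Pou3f1 at 1.83. The summed endoderm markers ran from 4.81 to 5084 FPKM (median 794) in the male motor neuron culture, with 11 of 12 at a mean of 1 FPKM or more and Afp at 0, and from 0 to 1332 (median 73.8) in the female one, with 12 of 12. Their part in the difference between these cultures was not tested.

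**Figure D2:**
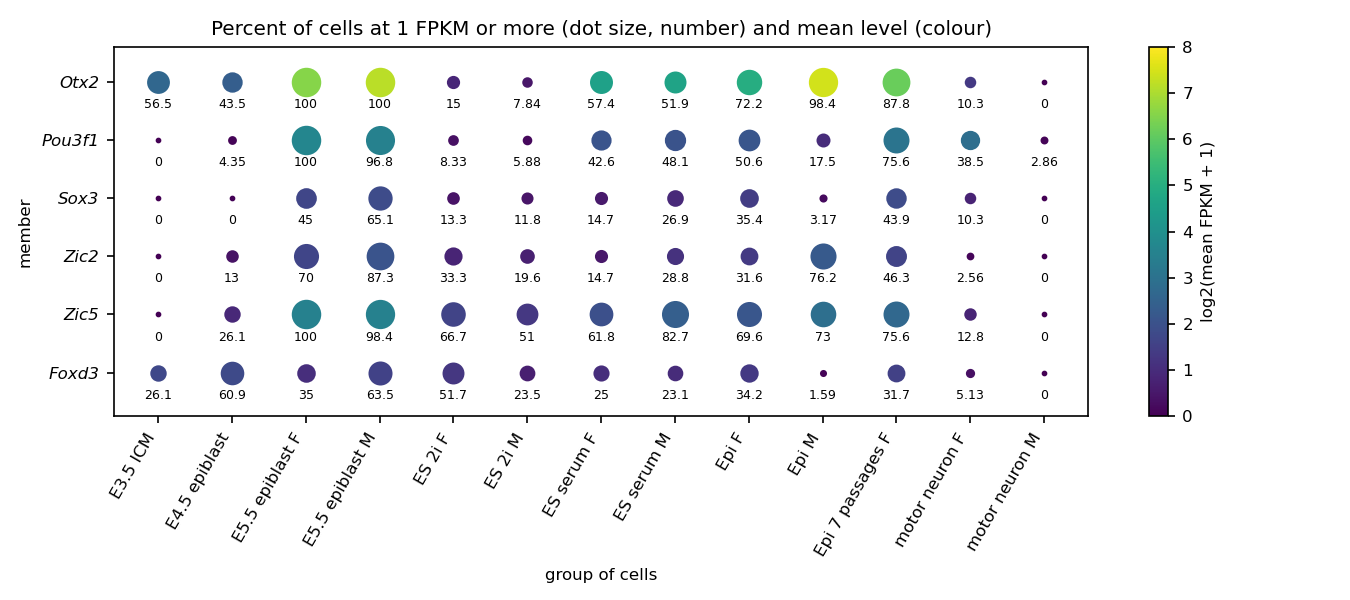
Share of cells at 1 FPKM or more, in percent, as dot size and number for 13 groups (horizontal) and 6 members (vertical), with colour giving log2(mean FPKM + 1). E5.5 entries read from 35 to 100%, while the male Epi culture reads 98.4% for Otx2 and 1.59% for Foxd3.

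Ordered by group mean, Otx2 and Zic2 were highest in the male Epi culture, Pou3f1 in female E5.5 cells, Sox3 and Zic5 in male E5.5 cells and Foxd3 at E4.5. Each member has 12 neighbouring pairs in that order, and for every member all 12 gaps were smaller than the larger of the 2 SDs over cells. That SD describes single cells, so it does not tell whether the means of neighbouring groups differ. Gaps above 2 standard errors over cells numbered 3 each for Otx2 and Pou3f1, 1 each for Sox3 and Zic5 and 0 for Zic2 and Foxd3. Those errors cover the cells only, and the order of the groups was not tested.

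To compare states over cultures rather than cells, the mean of each culture was taken as 1 value and log2(mean FPKM + 1) was fitted with limma over 8 cultures, 2 per state. The 2 cultures of a state are the female and the male line, and what they share beyond the line is not known. All 4 states share 1 estimate of spread for each gene. The p-values thus measure the spread between the lines within states, pooled over all 4 states, and not that of the compared states alone. In such means fewer positive cells and less RNA per cell cannot be told apart, which is why shares of cells are given beside them. A gene was called with a Benjamini-Hochberg adjusted p under 0.05 over 15504 genes and a log2 change of at least 1, and 4 members entered the fit; Sox3 and Foxd3 lay under the filter of 1 FPKM on the mean over cultures.

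Otx2 was higher in serum than in 2i in both lines, but no member was called there. Its culture means of 22.2 and 23.7 FPKM in serum did not overlap 0.814 and 0.413 in 2i, and the log2 change was 3.90 (SE 0.82; limma p = 0.00259, adjusted p = 0.165). Pou3f1 likewise had 3.24 and 3.15 against 0.258 and 0.124 FPKM, a log2 change of 1.82 (SE 0.88; limma adjusted p = 0.605). Zic5 changed by 0.74 (limma adjusted p = 0.702) and Zic2 by 0.07 (limma adjusted p = 1). Of all tested genes 0.0193% were called, and 0 of 4 members. At an unadjusted p under 0.05 stood 1 of 4 members beside 9.99% of genes.

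Between Epi and 2i cultures, Otx2 had the largest change among the members and narrowly missed the threshold. Its means of 30.8 and 173 FPKM against 0.814 and 0.413 gave a log2 change of 5.54 (SE 0.82; limma p = 0.000384, adjusted p = 0.0536). It was called in 6 of 18 other settings, and over all 18 the limma adjusted p ranged from 0.00274 to 0.315. Without the female Epi culture, the one that kept Zfp42, the log2 change was 6.76, and without the male one it was 4.31. Either omission left 1 Epi culture, and so no spread between Epi cultures. Zic5 changed by 1.06 (limma adjusted p = 0.325), Zic2 by 1.04 (0.329) and Pou3f1 by 1.32 (0.529). The call reached 0.664% of genes and 0 of 4 members, and an unadjusted p under 0.05 was met by 15.2% of genes and by 2 of 4 members, Otx2 and Zic5.

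Against serum, no member was called in Epi cultures, where 0.0387% of genes were called. Otx2 had a log2 change of 1.63 (SE 0.82; limma adjusted p = 0.727), made up of 0.45 in the female and 2.81 in the male line. Zic2 changed by 0.97 (limma adjusted p = 0.727), by 0.83 and 1.10 in the lines, and Zic5 by 0.32 (0.875). The value for Pou3f1 was -0.50 (limma adjusted p = 0.912), and it was 0.05 in the female and -1.05 in the male line. With each cell rescaled to an equal sum the female means were 3.60 in Epi and 3.65 in serum, the lower in Epi. An unadjusted p under 0.05 was met by 0 of 4 members and by 6.45% of genes. These 3 comparisons share cultures and are not independent of each other.

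Otx2 and Zic5 fell in motor neuron cultures relative to serum. Otx2 means were 1.53 and 0 FPKM against 22.2 and 23.7, and the log2 change was -3.91 (SE 0.82; limma adjusted p = 0.0142), lower in both lines. Zic5 means were 0.742 and 0.00927 FPKM against 2.91 and 4.28, a log2 change of -1.78 (SE 0.44; limma adjusted p = 0.0234). Thus 2 of 4 members were called, where 32.8% of all tested genes were, and 47.6% of genes had an unadjusted p under 0.05 beside 2 of 4 members. Zic2 had a log2 change of -0.77 (limma adjusted p = 0.206) and Pou3f1 of -0.60 (0.618), at 0.77 in the female and -1.97 in the male line. With equal sums per cell the female Pou3f1 means were 3.77 in motor neuron and 3.65 in serum cultures.

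The median of all genes in this comparison was 0.71 on the log2 scale, so that called genes were split into 4669 higher and 419 lower; upper-quartile scaling gave 2182 and 1617 with a median of 0, and rescaling each cell to an equal sum 2325 and 992. Otx2 and Zic5 were called lower under both scalings. Leaving out either serum culture or the male motor neuron culture ended both calls, with limma adjusted p from 0.0772 to 0.0791 for Otx2 and from 0.0818 to 0.127 for Zic5; the call of Zic5 also ended without either 2i culture (0.0513 and 0.0516). Averaging log2 values over cells ended the call of Otx2 (-2.35, limma adjusted p = 0.0985), and leaving out the filter or fitting the 4 compared cultures alone ended that of Zic5 (0.0603 and 0.0563). With a pseudocount of 0.1 Zic2 was called lower too, at -2.65 (limma adjusted p = 0.0472). Without the female motor neuron culture Pou3f1 was called lower, at -1.99 (limma adjusted p = 0.0371), and without the male one it was 0.78.

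**Figure D3:**
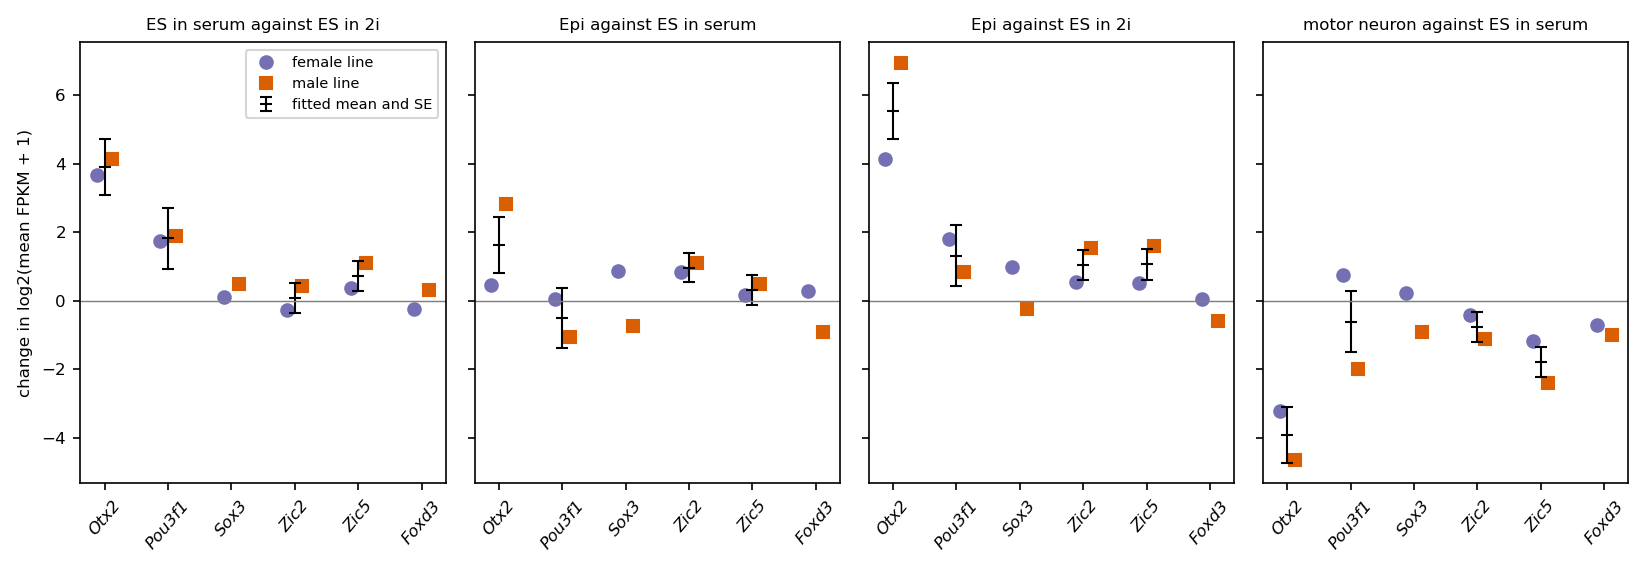
Change in log2(mean FPKM + 1) for each of the 6 members in each of 4 comparisons, with 1 point for the female and 1 for the male line. Otx2 points lie together for serum against 2i (3.68 and 4.13) and apart for Epi against serum (0.45 and 2.81).

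Between the 2 lines, over all 4 states, no member and no gene was called by limma (0% of 15504 genes; 8.96%, 1389 genes, at an unadjusted p under 0.05, and 0 of 4 members). Pou3f1 had the widest difference among the members, 1.02 higher in the female line (SE 0.52; limma adjusted p = 0.542). The values for Otx2, Zic2 and Zic5 were -0.21, -0.33 and -0.02. Sox3 lies on the X chromosome, and without the filter it was 0.38 higher in the female line (limma adjusted p = 0.723); Foxd3 was 0.56 higher (0.723). In the other 4 comparisons the unfiltered values ran from -0.34 to 0.37 for Sox3 and from -0.85 to 0.05 for Foxd3, and neither gene was called.

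The share of cells holding several members at once was highest in the E5.5 groups. At 1 FPKM, 61 of 63 male E5.5 cells (96.8%) and 17 of 20 female ones (85%) held 4 or more members. So did 21 of 41 cells of the 7-passage Epi culture (51.2%), 33 of 79 in the female Epi culture (41.8%) and 8 of 63 in the male one (12.7%). In serum it was 7 of 68 female (10.3%) and 12 of 52 male cells (23.1%), in 2i 4 of 60 and 0 of 51, in the blastocyst 3 of 23 at E4.5 and 0 of 23 at E3.5, and in the motor neuron cultures 2 of 39 female and 0 of 35 male cells.

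All 6 members together were seen in 23 male and 3 female E5.5 cells and in 4 cells each of the female and the 7-passage Epi cultures. The male Epi culture was made up differently: 30 of its 63 cells (47.6%) held exactly Otx2, Zic2 and Zic5. At E3.5 the cells with a member held mostly Otx2 alone (8 of 23) or Otx2 with Foxd3 (5 of 23). No member was found in 34 of 35 male and 20 of 39 female motor neuron cells, nor in 13 of 51 male 2i cells.

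**Figure D4:**
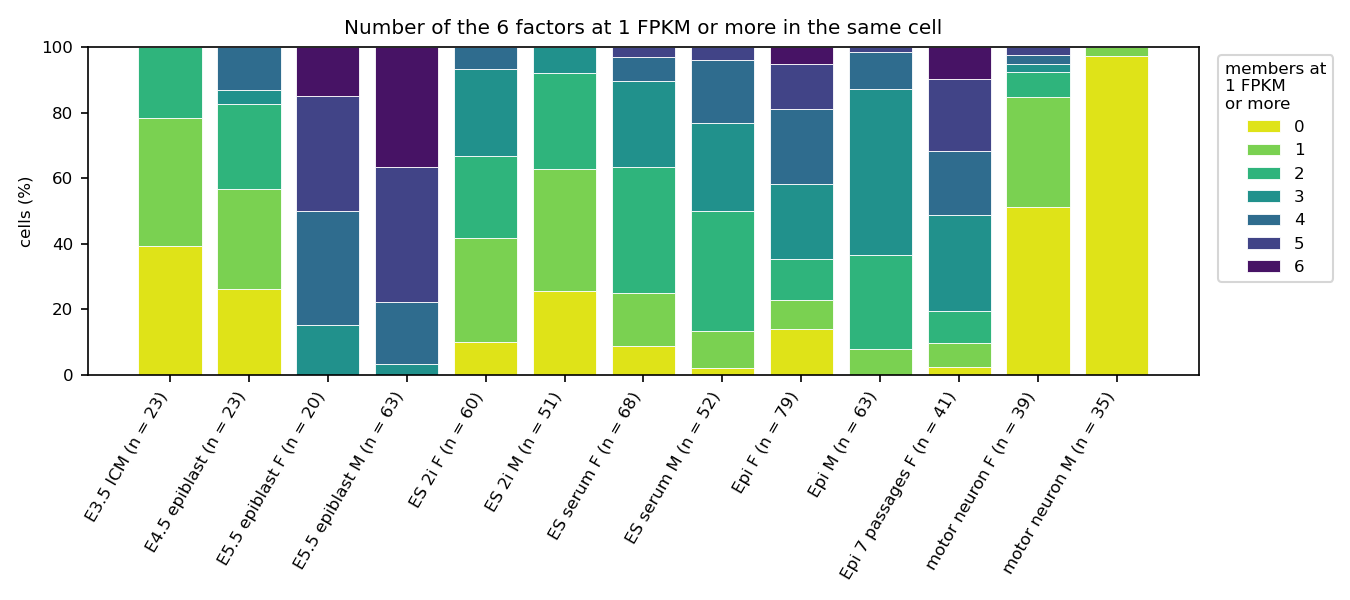
Share of cells, in percent, by the number of members at 1 FPKM or more, stacked for each of the 13 groups. E5.5 bars hold mostly 4 to 6 members, and the male motor neuron bar holds mostly cells with 0.

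Within a group, members were set against each other across cells by Spearman's rho, as a description of those cells, which share a culture, a table and a range of detected genes. In 94 pairs each gene was detected in at least 10 cells, and 23 of them had a rho of 0.3 or more. Of these, 11 (of 15 pairs) were in the female Epi culture, 6 (of 15) in the 7-passage culture and 2 (of 15) in male E5.5 cells. The female serum culture had 0 of 15 and the male one 1 of 15.

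Zic2 and Zic5, the neighbours on chromosome 14, had a rho of 0.58 in the female Epi culture (79 cells), 0.41 in the male one (63 cells) and 0.31 in the 7-passage culture (41 cells), and of -0.36 in female E5.5 cells (20 cells). The value was 0.14 in male E5.5 cells (63 cells), 0.27 in the female and 0.26 in the male serum culture, and 0.22 and 0.19 in 2i. Within the runs of title numbers it was 0.65 and 0.54 in the female Epi culture, and 0.20 (31 cells) and 0.59 (32 cells) in the male one. Pou3f1 and Sox3 had 0.56 in male serum cells (52 cells), 0.38 in female and 0.55 in 7-passage Epi cells. Otx2 and Pou3f1 had 0.41 in the female Epi culture and -0.32 in female E5.5 cells.

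Set against Zfp42, Pou3f1 and Otx2 did not behave alike in serum. Pou3f1 had a rho with Zfp42 of -0.64 in the female (68 cells) and -0.61 in the male serum culture (52 cells), and of -0.52 in the female Epi culture. Otx2 had 0.39 and 0.15 in serum and -0.26 in the female Epi culture. In E5.5 cells Otx2 and Zfp42 had -0.71 (20 female cells) and -0.45 (63 male cells). Within the higher run of title numbers of the male serum culture (39 cells) the value for Pou3f1 was -0.58, and within the 2 runs of the female Epi culture it was -0.50 and -0.54, while Otx2 in the male serum runs had -0.45 and 0.06. Pou3f1 also had a rho of 0.47 with the number of detected genes in the male serum culture, and the part of that in its other relations was not tested.

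**Figure D5:**
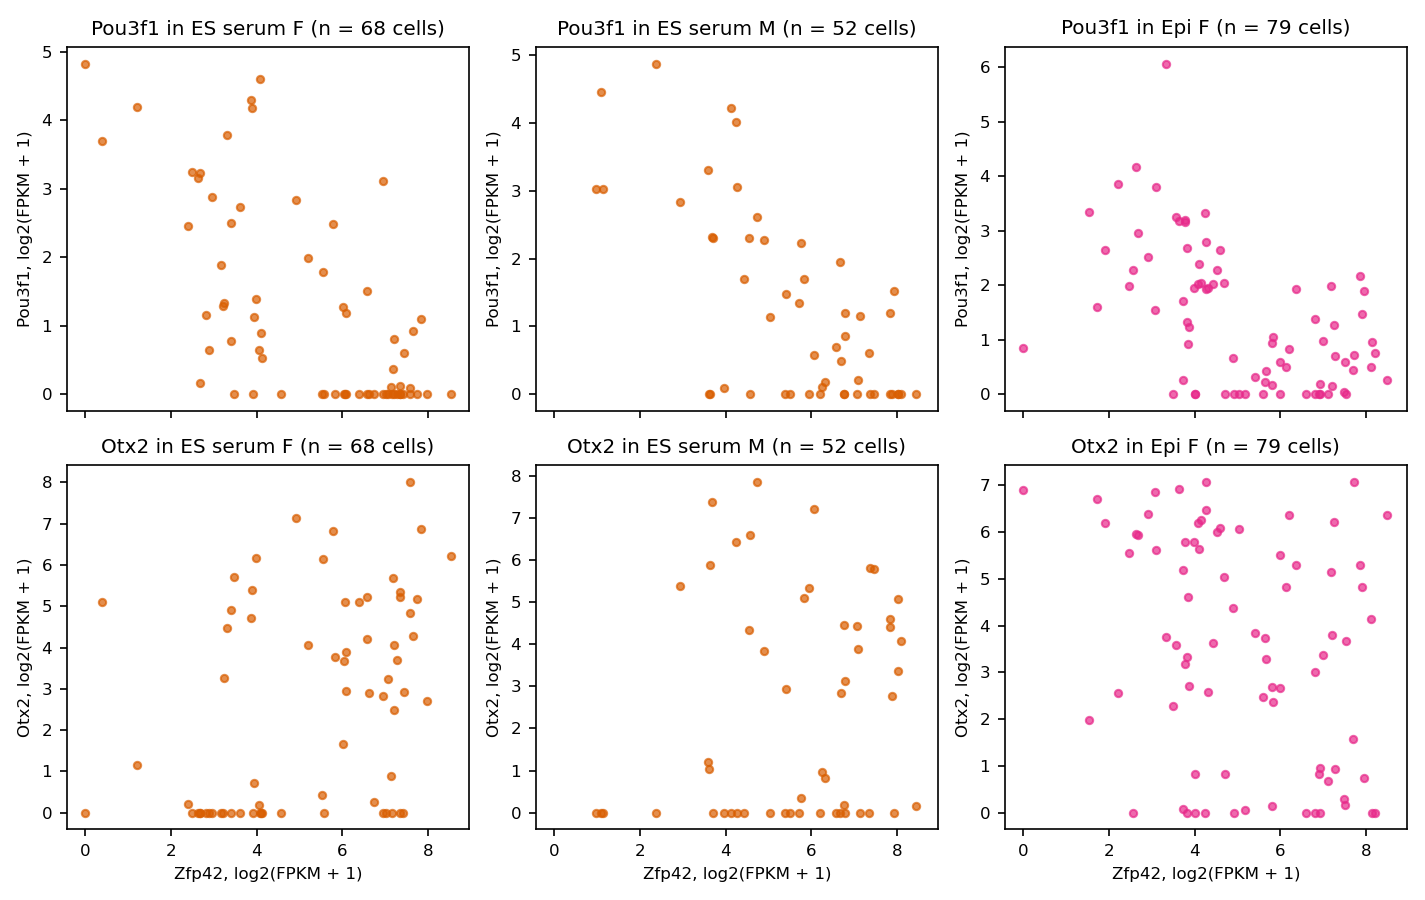
Otx2 and Pou3f1 against Zfp42 across single cells of the 2 serum cultures and the female Epi culture, each point 1 cell, both axes as log2(FPKM + 1). High Pou3f1 sits with low Zfp42 in both serum cultures (rho -0.64 and -0.61), while high Otx2 is found at high Zfp42 too.

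Other genes of the primed state and of endoderm were also set against the members in the Epi cells, as a description. Not every such pair is given here or in the next paragraph, and no rule set beforehand chose those that are. In the female Epi culture Fgf5, a growth factor of the primed epiblast, had a rho of 0.59 with Pou3f1, 0.50 with Zic2 and 0.42 with Otx2, and Zfp42 had -0.51 with Sox3, -0.49 with Zic2 and -0.39 with Zic5. In the male Epi culture Otx2 had 0.59 with Gata6, 0.48 with Fgf5 and -0.44 with Pou5f1, whereas Zic5 had 0.49 with Pou5f1. The 7-passage culture had 0.49 for Otx2 with Gata6 and -0.60 for Pou3f1 with Gata6. There Pou5f1 went with Pou3f1 (0.68), Foxd3 (0.67) and Sox3 (0.66).

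Blastocyst cells gave other partners. Otx2 had a rho of 0.51 with Sox2 at E3.5 and 0.78 at E4.5 (23 cells each), and 0.61 with Pou5f1 at E3.5. Foxd3 at E4.5 had 0.55 with Sox2 and -0.40 with Gata6. In female E5.5 cells Otx2 had 0.69 with Pou5f1 and 0.62 with Fgf5, and Pou3f1 had -0.52 with Pou5f1; in male ones Otx2 had 0.36 with Fgf5, and Foxd3 had 0.39 with Otx2 and 0.44 with Pou3f1.

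Over the 13 group means members were compared by Pearson's r of log2(mean FPKM + 1), given as a description. Zic2 and Zic5 had 0.93, Pou3f1 and Sox3 0.89, and Otx2 had 0.86 with Zic2 and with Zic5, while Foxd3 had at most 0.32 with any other member. Over the 8 cultures of the fit alone the pairs were less distinct: Otx2 and Zic5 had 0.89, Zic2 and Zic5 0.89, Otx2 and Zic2 0.83, Pou3f1 and Sox3 0.69, and Sox3 and Foxd3 0.68. By the same measure, over 14565 genes, the 3 genes most like each member were Mir302a (0.95), Bcl11a and Gm27286 for Otx2, Bend3 (0.95), Psors1c2 and ENSMUSG00000055694 for Pou3f1, and Ahdc1 (0.94), Nop9 and Mmp25 for Sox3. They were Spata13 (0.94), Vrtn and Enkd1 for Zic2, Cnksr3 (0.97), 1110038B12Rik and Ciart for Zic5, and Erbb3 (0.86), Spint1 and Appbp2os for Foxd3. Mir302a, a microRNA gene of the pluripotency cluster, was listed at 0 in the blastocyst, 2i and motor neuron groups, at 256.96 and 165 FPKM in female and male E5.5 cells, at 677 in the male and 26.9 in the female Epi culture. It was 1 of the 18 named genes that a ranking over the 8 cultures also gave.

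Beside the members, 18 other genes named for the primed or formative state were tested over cultures, from a list chosen with earlier results of these data known. Serum against 2i gave 1 higher and 0 lower, the tight junction gene Cldn6 (3.41, limma adjusted p = 0.0284), and a median log2 change of 1.36 beside 0 over all genes. Epi against 2i gave 2 higher, Cldn6 (4.30, limma adjusted p = 0.00896) and the ETS factor Etv4 (3.42, 0.0294), and 0 lower, with a median of 2.07 beside 0.13. Epi against serum gave 0 in either direction by limma, with a median of 0.67 beside 0.12. An unadjusted p under 0.05 was met there by 5 of the 18, beside 6.45% of all genes. The widest changes in the same direction in both lines were there those of the growth factors Fgf8 (5.43) and Fgf5 (4.15) and of the T-box factors T (3.65) and Eomes (3.25), none of them called. In motor neuron cultures against serum 7 of the 18 were called lower and 2 higher, beside 419 lower and 4669 higher of 15504 genes. Among those lower were the Nodal co-receptor Tdgf1 (-4.97, limma adjusted p = 0.0223), the bHLH factor Tcf15 (-3.61, 0.0389) and the DNA methyltransferase Dnmt3b (-3.23, 0.00606). The median of the 18 was -1.86 beside 0.71 over all genes. The 2 that rose there, named after their values were seen, were Sall2 (1.89) and Cldn6 (1.47).

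A list of 12 naive factors gave no call by limma in the 3 comparisons among ES and Epi cultures. In Epi against 2i, 8 of the 12 were lower at an unadjusted p under 0.05, beside 15.2% of all genes in either direction. The median log2 change of the 12 was -3.19 there, beside 0.13 over all genes. In serum against 2i 4 of the 12 were lower (median -1.29), beside 9.99% of all genes. In Epi against serum it was 1 of 12 (median -1.64) beside 6.45%, a count too small to set apart from that share. In motor neuron cultures Nanog (-5.04) and 2 others of the 12 fell and Tbx3 rose, where 419 of all 15504 genes were called lower. Markers of other cell types were higher in those cultures for 9 of 9 tested neuron genes and 8 of 10 tested endoderm genes, where 4669 of all 15504 genes were called higher, or 2182 with upper-quartile scaling. Their part in the members' levels was not tested.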

How the data were processed

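The authors deposited 4 tables of FPKM, normalised separately, with 1 column per cell; per the submitters' processing notes, STAR 2.4.1, Cufflinks and Cuffnorm 2.2.1 were used with build mm10. No read counts were used here, so depth is unknown, and intervals for shares of cells cover the number of cells only. Of 43628 identifiers, 42462 matched GENCODE vM21, and 356 values with a damaged exponent, all at or below 9.7552e-05 FPKM, were repaired. A cell held a gene at 1 FPKM or more, with exact Clopper-Pearson 95% intervals. Culture means were fitted as log2(mean FPKM + 1) with limma 3.58.1 (R 4.3.3, trend, two-sided) over 8 cultures, for genes averaging 1 FPKM or more, and the fit was first tested on simulated data. The 2 cultures of a state are 2 cell lines, and the line pairs cultures across states: over 15504 genes, deviations of same-line cultures had correlations of 0.06 to 0.16 in 6 pairs. Alternatives were other pseudocounts, filters, scalings and averages, the 7-passage culture, the line as a block, fewer cultures or cells, and omission of each culture. The other genes named are the 3 whose group means had the highest Pearson's r with each member, among genes reaching 5 FPKM in a group, and, of each list, up to 4 called genes or, with none called, up to 4 with the widest change in 1 direction in both lines. The members and lists were chosen with earlier results of these data known. Python 3.11.15 (pandas 2.3.3, scipy 1.17.1) was used for the rest. No column of the tables was left unmapped. A gene that the naming rule selects is not reported here.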

Additional observations from a re-analysis of the deposited data

Results flagged for a closer look

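In 9 cases the female and the male line moved in opposite directions, and none of these differences between the lines was tested. Values are changes in log2(mean FPKM + 1), with 1 culture per line and state, and the difference is female minus male.

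Between serum and 2i, Zic2 changed by -0.28 in the female and 0.42 in the male line, a difference of -0.6993. Foxd3 changed by -0.23 and 0.32, a difference of -0.5514.

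Between Epi and serum, Pou3f1 changed by 0.05 and -1.05, a difference of 1.1068; with each cell rescaled to an equal sum the female means were 3.60 in Epi and 3.65 in serum, so that both lines were lower in Epi. Sox3 changed by 0.88 and -0.72, a difference of 1.6031, and Foxd3 by 0.30 and -0.92, a difference of 1.2169. Relative to 2i the Epi cultures gave 0.99 and -0.24 for Sox3, a difference of 1.2297, and 0.07 and -0.60 for Foxd3, a difference of 0.6654. The 2 Epi cultures also differed in Zfp42, at 72.5 and 0.0687 FPKM.

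Between motor neuron and serum cultures, Pou3f1 changed by 0.77 and -1.97, a difference of 2.7401, and Sox3 by 0.22 and -0.91, a difference of 1.1321. The female differences were smaller with equal sums per cell, where Pou3f1 was 3.77 against 3.65 and Sox3 0.620 against 0.522.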

How the results depend on the processing

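With a culture per line as the only replicate, calls moved with settings. Serum against 2i called 1 member in place of 0 with the 7-passage culture (Otx2, limma adjusted p = 0.0466). In that setting the 7-passage culture took the place of the female Epi culture. It comes from a table normalised separately, so culture and table cannot be told apart in its results here and below. Epi against 2i called 1 (Otx2) with a filter of 5 FPKM, log2 averaged over cells, equal sums per cell, upper-quartile scaling or the 7-passage culture, and 0 to 1 when each culture was left out. Motor neuron against serum called 3 in place of 2 with a pseudocount of 0.1, and 1 without a filter, with log2 averages or with the 4 compared cultures alone. With the filter of 5 FPKM it also called 1, Otx2, but there Zic5 lay under the filter and was not tested. Leaving out each culture gave 0 to 3. Of 78 member and group pairs, 28 had at least 50% of cells at 1 FPKM, and 12 at 5 FPKM. Of 18 named similar genes, 1 recurred over 8 cultures.

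Directions turned for uncalled values. Zic2 in serum against 2i was -0.075 with log2 averages, and -0.23 to 0.38 when each culture was left out. When each culture was left out, Epi against serum ran from -1.07 to 0.067 for Pou3f1 and from -0.053 to 0.70 for Zic5, turning without the male Epi culture, and motor neuron against serum ran from -1.99 to 0.78 for Pou3f1, turning without the male motor neuron culture. Between lines, Otx2 was 0.57 with a pseudocount of 0.1, 0.087 with the 7-passage culture and -0.73 to 0.54 over the omissions, positive without either Epi culture. Zic5 there was 0.50, 0.11 and -0.29 to 0.23 in the same settings, and positive without either serum culture (0.12) or either Epi culture (0.23). The cause of these changes was not tested.

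With the line as a replicate block, the members called were 0, 0, 0 and 2 in the 4 comparisons of states, as without it. All genes called went from 3 to 0 for serum against 2i and from 6 to 2 for Epi against serum. The 7-passage culture gave 33 higher and 81 lower for serum against 2i, 848 in all for Epi against serum, and for Epi against 2i 1693 in place of 45 higher and 58 lower; log2 averages gave 224 for serum against 2i and 313 for Epi against 2i, and with the 4 compared cultures alone the counts were 0, 0, 0 and 2876. Without a filter, serum against 2i gave 27 and Epi against 2i 53; with a pseudocount of 0.1 serum against 2i gave 0. Equal sums per cell gave 5 and upper-quartile scaling 12 for serum against 2i, and equal sums 3317 in place of 5088 for motor neuron against serum. Without the female Epi culture the counts for serum against 2i, Epi against serum and Epi against 2i were 48, 366 and 768.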
